A study of Mus musculus with 2 samples.

Results

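Solute carriers are the membrane proteins that move amino acids, sugars, nucleosides, vitamins, metals and inorganic ions across the plasma membrane, the lysosome and the inner mitochondrial membrane. The genes described here are the symbols of the solute carrier nomenclature (Slc, a family number, the letter a and a member number) that reached 1 RPKM or more in naive CD4 or naive CD8 T cells of the mouse. RPKM is the number of reads divided by gene length and by library total, so levels can be set side by side between genes. Of 23167 symbols measured, 339 matched the pattern and 149 of these reached 1 RPKM in at least 1 library. The members were chosen by their measured RPKM, so the fact that they are expressed is no result. The name fits 145 of the 149. The other 4 are named after a carrier without being one. They are Slc9a3r1, a PDZ scaffold that binds carriers, Slc4a1ap, an adaptor protein named for its binding to an anion exchanger, Slc7a6os, a gene on the opposite strand to Slc7a6, and Slc2a4rg-ps, a pseudogene by its symbol.

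The cells came from spleen and lymph nodes of Foxp3-GFP mice on a C57/BL6 background, which report the regulatory T cell factor Foxp3 as green fluorescence. Naive CD4 cells and naive CD8 cells were both sorted for high CD62L and low CD44 without CD25 or GFP, and total RNA was depleted of ribosomal RNA before sequencing. The number and age of the mice, and whether they were pooled, are not given in the labels. Each cell type had a single library, so replicate error is unknown and no p-value is given.

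RPKM were computed on 24741945 reads in CD4 and 23853921 in CD8, and the median member had 775 reads in CD4 and 666 in CD8. The sort markers followed the labels, with Cd4 at 305 RPKM in CD4 cells and 8.89 in CD8 cells, and Cd8a at 2.496 RPKM in CD4 cells and 518 in CD8 cells. Of 5 B cell markers 1 reached 1 RPKM, Cd79b at 2.14 RPKM in CD4 cells and 28.8 in CD8 cells, which made the B cell sum 3.46 RPKM in CD4 cells and 30.04 in CD8 cells, while the B cell genes Ms4a1, Cd79a and Pax5 stayed under 1 RPKM in both. Summed markers of macrophages and monocytes were at 5.54 RPKM in CD4 cells and 4.80 in CD8 cells, those of neutrophils at 2.52 and 4.51 RPKM, those of NK cells at 0.142 and 1.36 RPKM and those of platelets at 1.08 and 0.968 RPKM, in CD4 and in CD8 in that order. Of the 6 erythroid markers, 5 were listed at 0 in both libraries and Alas2 was at 0.226 RPKM in CD4 cells and 0.192 in CD8 cells. Among stromal and endothelial markers Pecam1, which T cells also express, was at 105 RPKM in CD4 cells and 52.4 in CD8 cells, and Cdh5, Col1a1 and Col3a1 were under 1 RPKM in both. Any part of these other cells in the values below was not tested.

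Naive T cells rest with a low demand for nutrients, and after activation they raise glucose, amino acid and iron uptake. Uptake of glutamine and leucine feeds the growth kinase mTORC1, mitochondrial carriers feed and drain the respiratory chain, and cation-chloride cotransporters set cell volume. Carriers often work in families whose members move like substrates in different places or with different affinities, so the make-up of a family can differ while its total does not.

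Most solute carrier members reached the expression limit in both the CD4 and the CD8 library. Of the 149 members, 139 reached 1 RPKM in both libraries, 7 in CD4 alone and 3 in CD8 alone. The same split was not counted over all compared genes, so it is not read as a trait of the carriers. Where a member reached 1 RPKM in 1 library alone, the filter fixed its direction, so that direction alone is no result. The difference was measured as log2((CD4 RPKM + 1)/(CD8 RPKM + 1)), and a member passed the size rule, a limit of 2-fold, where this value was at least 1 or at most -1. By this rule 2 members were higher in CD4 and 3 were higher in CD8. Together these 5 are 3.36% of the members, where 5.48% of all 10228 compared genes passed the rule, 2.41% toward CD4 and 3.07% toward CD8. The share of members was thus not above that of genes in general. The median difference was 0.06 over the members and 0.08 over all compared genes, and 85 members lay above 0 (57.0%, against 59.5% of all compared genes) and 64 below it. Across the 149 members the log2(RPKM + 1) of CD4 and of CD8 gave r = 0.93 (Pearson) and rho = 0.925 (Spearman). Over all 10228 compared genes both values were slightly higher, r = 0.95 and rho = 0.953. These values describe the same 2 libraries and are no test. With each library rescaled to an RPKM sum of 1000000, the median of all compared genes moved to 0.29. The member counts became 5 higher in CD4 and 3 higher in CD8, beside 5.05% and 2.79% of all compared genes. Centring on the median gene gave 2 and 5, beside 2.12% and 3.6% of all compared genes.

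**Figure D1:**
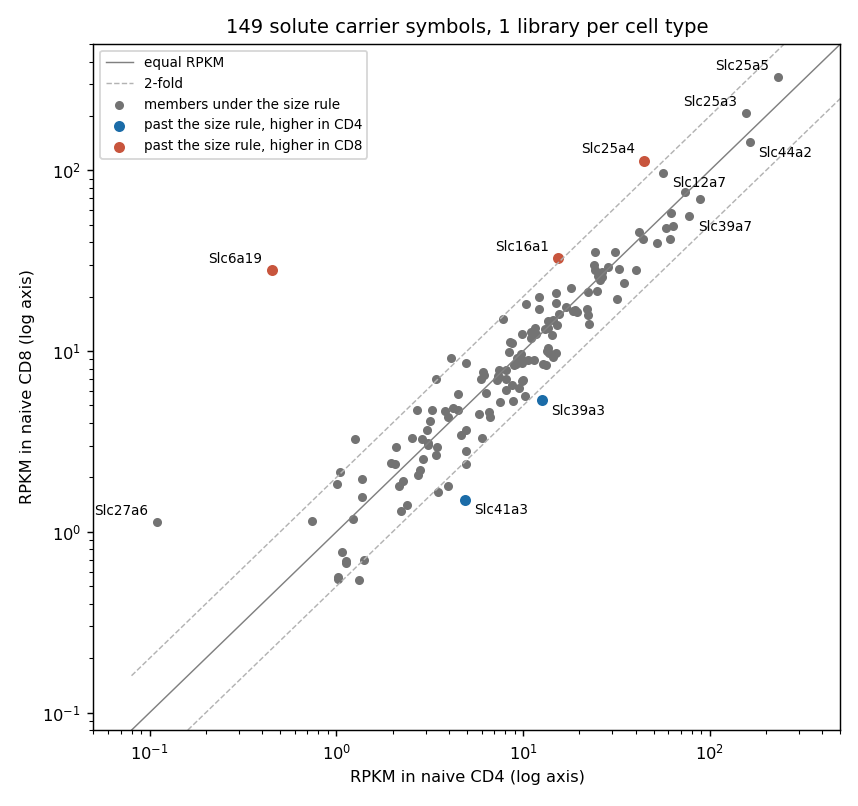
RPKM of the 149 members in naive CD4 (x axis) and naive CD8 (y axis), both on log axes. Each point is 1 gene in 1 library per cell type, the solid line marks equal RPKM and the dashed lines a 2-fold ratio. Most points lie between the dashed lines, and Slc6a19 stands farthest from them, at 0.4496 RPKM in CD4 cells and 27.9 in CD8 cells.

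The 5 members past the size rule were Slc41a3 and Slc39a3, higher in CD4, and Slc16a1, Slc25a4 and Slc6a19, higher in CD8. Slc6a19, the sodium-dependent neutral amino acid transporter known from gut and kidney epithelium, had by far the greatest difference of the members, with 54 reads (0.4496 RPKM) in CD4 and 3236 reads (27.9 RPKM) in CD8. It was 62.2-fold higher in CD8 (95% counting interval 47.5 to 82.9, from the exact Clopper-Pearson interval of the split of its reads, which covers counting error only). Folds given in this way are ratios of RPKM without the added 1. Slc25a4, the adenine nucleotide translocase that exchanges mitochondrial ATP for ADP and is known as the heart and muscle form, was at 44.2 RPKM in CD4 cells and 113 in CD8 cells, or 2.56-fold higher in CD8 (2.44 to 2.68). Slc16a1, the lactate and pyruvate transporter MCT1, was at 15.4 RPKM in CD4 cells and 32.7 in CD8 cells (2.12-fold, 1.999 to 2.25). Its log2 difference of -1.04 lay just past the rule and was -0.85, under it, with libraries rescaled to equal RPKM sums. Both members toward CD4 belong to metal transport, a count too small to be read as a trait of that class. Slc41a3, a member of the magnesium transporter family, was at 4.90 RPKM in CD4 cells and 1.504 in CD8 cells (3.25-fold, 2.58 to 4.13), and Slc39a3, the zinc importer ZIP3, was at 12.6 RPKM in CD4 cells and 5.33 in CD8 cells (2.36-fold, 2.11 to 2.65). In sorted populations, a gene made by fewer cells and a gene with less RNA per cell cannot be told apart.

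The stretch upstream of the start of each of these 5 genes is printed because a reader may wish to compare the control regions of the members that differ most. Sequences are those of RefSeq on GRCm38.p6, matched by symbol, 250 bases before the annotated start, 5′ to 3′ on the gene's strand. They lie at chr13:73692637-73692886 (minus strand) for Slc6a19, chr8:46211063-46211312 (minus) for Slc25a4, chr3:104638414-104638663 (plus) for Slc16a1, chr6:90618996-90619245 (plus) for Slc41a3 and chr10:81037316-81037565 (minus) for Slc39a3. Capitals mark any of 3 motifs searched on both strands: the E-box CACGTG, which reads the same on both strands, the Runx motif TGTGGT and the Ets core CCGGAA. The motifs were picked after the promoters had been seen.
Slc6a19: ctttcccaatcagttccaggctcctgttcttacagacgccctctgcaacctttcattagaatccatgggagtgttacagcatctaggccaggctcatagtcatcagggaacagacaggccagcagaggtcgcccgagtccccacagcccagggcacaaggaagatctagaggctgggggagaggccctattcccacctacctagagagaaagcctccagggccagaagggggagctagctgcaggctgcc
Slc25a4: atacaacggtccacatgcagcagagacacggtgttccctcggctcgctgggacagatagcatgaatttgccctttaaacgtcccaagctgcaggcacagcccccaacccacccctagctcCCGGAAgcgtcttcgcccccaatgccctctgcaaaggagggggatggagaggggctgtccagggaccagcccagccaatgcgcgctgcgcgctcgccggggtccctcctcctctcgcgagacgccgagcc
Slc16a1: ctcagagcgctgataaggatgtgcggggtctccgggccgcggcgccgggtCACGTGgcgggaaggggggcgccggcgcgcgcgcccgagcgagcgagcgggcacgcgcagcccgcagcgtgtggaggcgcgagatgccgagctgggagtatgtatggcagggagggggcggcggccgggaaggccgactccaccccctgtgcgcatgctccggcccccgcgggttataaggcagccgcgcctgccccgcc
Slc41a3: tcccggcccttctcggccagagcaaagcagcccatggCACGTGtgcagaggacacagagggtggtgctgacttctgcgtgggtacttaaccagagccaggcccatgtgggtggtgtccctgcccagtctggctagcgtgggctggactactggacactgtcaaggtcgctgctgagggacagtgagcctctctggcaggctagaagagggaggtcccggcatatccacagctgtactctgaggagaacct
Slc39a3: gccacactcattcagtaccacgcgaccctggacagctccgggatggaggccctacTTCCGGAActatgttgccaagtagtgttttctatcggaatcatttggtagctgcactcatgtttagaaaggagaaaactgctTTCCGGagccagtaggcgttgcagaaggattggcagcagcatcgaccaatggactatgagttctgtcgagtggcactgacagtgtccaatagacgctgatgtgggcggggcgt

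Slc16a1 and Slc41a3 each held an E-box, Slc25a4 and Slc39a3 an Ets core (overlapping matches in Slc39a3 run together in the capitals), and no Runx motif was in any of these 5 windows. Among 110 members with a promoter in the table, 14.5% held the E-box, 25.5% the Ets core and 12.7% the Runx motif, while among the promoters of all 27025 genes the shares were 6.05%, 12.2% and 14.2%, in the same order. Members were chosen by expression, while the set of all promoters had no such filter. The sets also differed in CpG content, as given below. The E-box and the Ets core each hold a CG, and the Runx motif does not. The shares are therefore not read as a trait of the carriers. Whether they differ from those of other expressed genes was not tested. Matches describe the letters only. The 5 windows also spanned a wide range of CpG content, from 3 CpG dinucleotides in Slc6a19 to 37 in Slc16a1, with 7 in Slc41a3, 12 in Slc39a3 and 18 in Slc25a4. The median was 15 over the members and 6 over all promoters. Members with 15 CpG or fewer (56 genes) had a median log2 difference of 0.09 and those with more (54 genes) had 0.08. The median was 0.31 over the 14 members with the Runx motif and 0.05 over the 96 without it. It was 0.03 and 0.08 with and without the E-box, and 0.07 and 0.08 with and without the Ets core. These splits were not made over all compared genes and are not read as results. A link between any motif and the difference was not tested.

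Below the size rule a second, smaller limit was used, chosen after the values were seen: an RPKM ratio of 1.5 or more whose counting interval lay above 1. It took 23 members higher in CD4 (15.4%, against 11.1% of all compared genes) and 15 higher in CD8 (10.1%, against 9.33%). For the remaining 111 members the difference was smaller or was not detectable at this depth, and the interval held 1 for 41 members (27.5%, against 27.8% of all compared genes). A ratio of 2 or more was found for 7 members toward CD4 (4.70%, against 4.15% of all compared genes) and 8 toward CD8 (5.37%, against 4.59%), and 10 of these 15 were under the size rule because the added 1 RPKM understates low genes. They were Slc16a3, Slc25a24, Slc38a6, Slc25a23 and Slc25a42 toward CD4 and Slc27a6, Slc9a7, Slc16a6, Slc25a13 and Slc12a4 toward CD8.

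**Figure D2:**
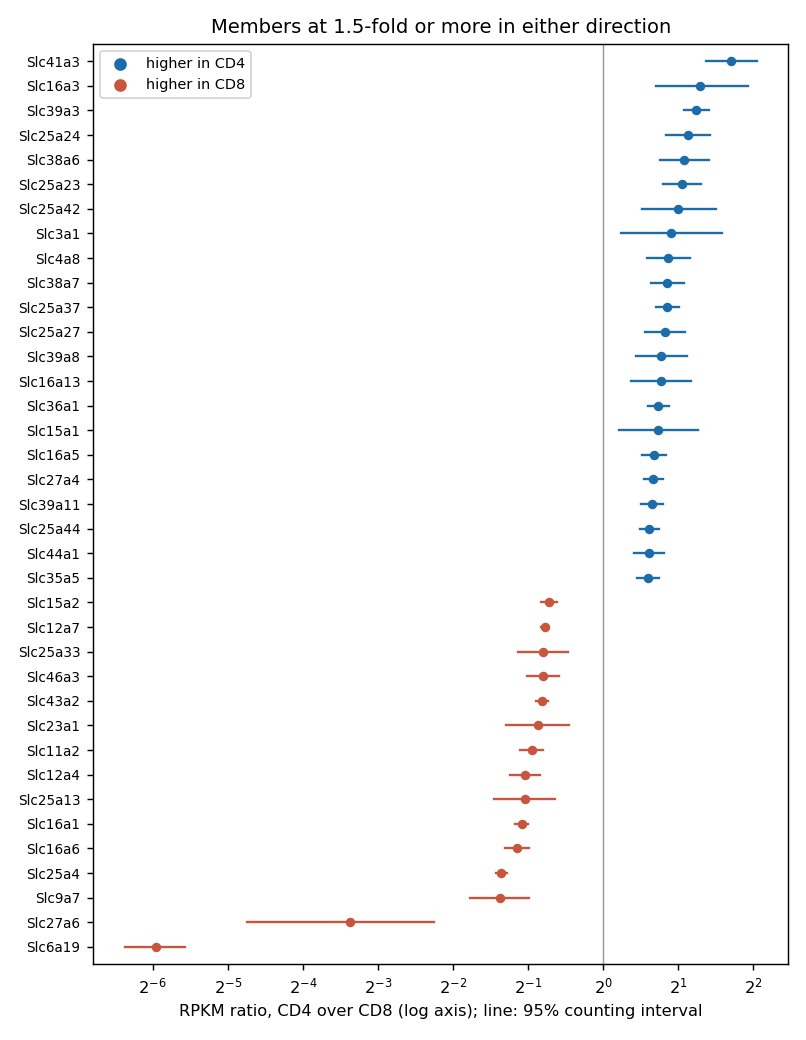
RPKM ratio of CD4 over CD8 (log axis) for 37 of the 38 members at 1.5-fold or more in either direction, with lines for the 95% counting interval. The members drawn as higher in CD4 lie between 1.52-fold for Slc35a5 and 3.25-fold for Slc41a3. Slc6a19 and Slc27a6 stand apart at the CD8 end.

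Of the 23 amino acid and peptide transporters, the 5 highest in CD4 differed by less than 1.5-fold between the libraries, and Slc6a19, under 1 RPKM in CD4, was high in CD8. Slc1a5, the glutamine transporter ASCT2, was the highest of the class, at 73.2 RPKM in CD4 cells and 75.7 in CD8 cells, and its interval held 1 (CD8 over CD4 1.03, 0.993 to 1.07). Slc38a2, a sodium-coupled transporter of small neutral amino acids, was at 41.9 RPKM in CD4 cells and 45.6 in CD8 cells, and its relative Slc38a1 at 11.6 and 13.4 RPKM in the same order. Slc7a1, the arginine transporter CAT1, was 1.27-fold higher in CD8 (1.19 to 1.36), at 8.66 RPKM in CD4 cells and 11.02 in CD8 cells. The large neutral amino acid transporter LAT1 is a pair of a light chain, Slc7a5, and the CD98 heavy chain, Slc3a2. These 2 chains leaned in opposite ways: Slc7a5 was at 9.18 RPKM in CD4 cells and 8.46 in CD8 cells with an interval that held 1 (CD4 over CD8 1.08, 0.98 to 1.20), and Slc3a2 was at 24.3 RPKM in CD4 cells and 35.3 in CD8 cells (1.45-fold higher in CD8, 1.37 to 1.54). Slc7a6, another light chain of the heavy chain Slc3a2, was at 13.7 RPKM in CD4 cells and 14.7 in CD8 cells.

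Carriers known from the lysosomal membrane went both ways and were grouped after their values were seen. Slc36a1, the proton-coupled amino acid transporter PAT1, was at 8.83 RPKM in CD4 cells and 5.30 in CD8 cells (1.67-fold higher in CD4, 1.51 to 1.83), and Slc38a7, a lysosomal glutamine exporter, at 6.01 RPKM in CD4 cells and 3.32 in CD8 cells (1.81-fold, 1.55 to 2.11). Slc38a9, the lysosomal arginine sensor of mTORC1, was at 4.62 RPKM in CD4 cells and 3.44 in CD8 cells (1.34-fold, 1.22 to 1.48). Slc15a4, a lysosomal histidine and peptide transporter, was level at 9.30 RPKM in CD4 cells and 9.14 in CD8 cells. Slc17a5, the lysosomal sialic acid exporter, was 1.23-fold higher in CD8 (1.05 to 1.44), at 3.81 RPKM in CD4 cells and 4.68 in CD8 cells, and Slc46a3, described below, was also higher in CD8. The genes that follow are outside this lysosomal group and belong to the amino acid and peptide class. Toward CD8 lay the peptide transporter Slc15a2 (12.1 RPKM in CD4, 20.01 RPKM in CD8). So did Slc43a2, the branched-chain amino acid transporter LAT4, at 10.3 RPKM in CD4 cells and 18.2 in CD8 cells (1.76-fold, 1.66 to 1.86). Slc38a6 was at 3.52 RPKM in CD4 cells and 1.67 in CD8 cells, and the taurine transporter Slc6a6 at 9.89 and 8.54 RPKM in the same order. The amino acid and peptide class had 10 members above 0 and 13 below it, with a median of -0.05. With libraries rescaled to equal RPKM sums the median became 0.16, where Slc1a5 stood at 0.16 and Slc38a2 at 0.09.

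Sugar transporters had the narrowest range of the classes with 12 or more members, with differences from -0.46 to 0.35. By the 1.5-fold limit 0 of 12 were called in either direction, beside 11.1% of all compared genes toward CD4 and 9.33% toward CD8. With so few genes this count is not read as a trait of the class. Slc2a1, the basal glucose transporter GLUT1, was at 14.4 RPKM in CD4 cells and 14.9 in CD8 cells, and its interval held 1 (CD8 over CD4 1.03, 0.960 to 1.12). Slc2a3, the high-affinity glucose transporter GLUT3, was at 14.98 RPKM in CD4 cells and 20.9 in CD8 cells (1.40-fold higher in CD8, 1.305 to 1.496). The 2 glucose transporters were thus about level with each other in CD4, where Slc2a1 made 48.98% of their summed RPKM, while in CD8 it made 41.6%. Slc50a1, a sugar transporter of the SWEET family, was the highest of the class at 88.6 RPKM in CD4 cells and 69.6 in CD8 cells, ahead of Slc37a1 at 26.5 and 25.9 RPKM in the same order. Slc37a4, the glucose-6-phosphate transporter of the endoplasmic reticulum, was at 12.2 RPKM in CD4 cells and 17.1 in CD8 cells (1.41-fold higher in CD8, 1.27 to 1.56). The urate transporter Slc2a9 was at 8.06 RPKM in CD4 cells and 6.12 in CD8 cells.

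**Figure D3:**
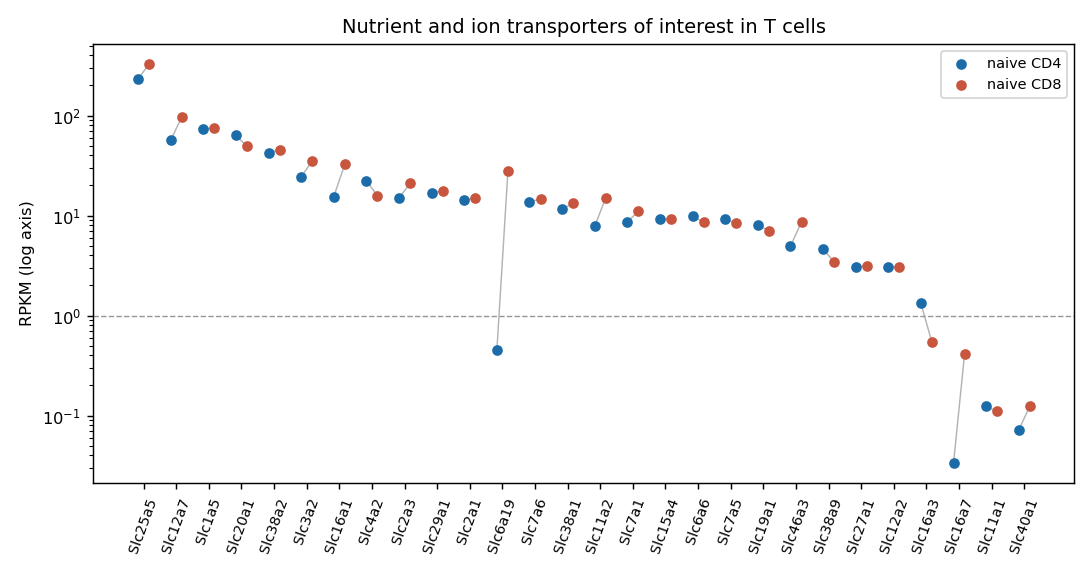
RPKM (log axis) of 28 nutrient and ion transporters of interest in T cells, ordered by their mean, with naive CD4 in blue at the left of each pair and naive CD8 in red. The dashed line is at 1 RPKM. Slc25a5 is at the top with 232 RPKM in CD4 cells and 328 in CD8 cells, and Slc16a7, Slc11a1 and Slc40a1 lie under the line in both.

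A list of 30 nutrient and ion transporters of interest in T cells was read across classes. It was drawn up with earlier results known and holds Slc6a19, so its counts are no independent evidence. Of these 27 were members, with a median difference of -0.05; 11 lay above 0 and 16 below it. By the 1.5-fold limit 2 were higher in CD4, Slc16a3 among them, and 5 were higher in CD8, Slc6a19, Slc16a1, Slc11a2, Slc46a3 and Slc12a7, where the shares over all compared genes were 11.1% toward CD4 and 9.33% toward CD8. Intervals held 1 for 8 of the 27, among them Slc1a5, Slc7a5, Slc2a1 and the sodium-potassium-chloride cotransporter Slc12a2 (3.09 RPKM in CD4, 3.04 RPKM in CD8). The 3 that were no members were the monocarboxylate transporter Slc16a7, the phagosomal metal transporter of macrophages Slc11a1 and the iron exporter ferroportin, Slc40a1. Slc11a1 had 7 reads in CD4 and 6 in CD8.

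Monocarboxylate transporters were few and pulled in both directions. Of 6 expressed members 3 passed the 1.5-fold limit toward CD4 and 2 toward CD8, beside 11.1% and 9.33% of all compared genes. On the CD8 side, Slc16a1 was joined by Slc16a6, whose zebrafish counterpart exports ketone bodies from liver, at 4.11 RPKM in CD4 cells and 9.10 in CD8 cells (2.21-fold, 1.98 to 2.48). On the CD4 side, Slc16a3, the lactate exporter MCT4 of glycolytic cells, was low in both libraries at 84 reads (1.32 RPKM) in CD4 and 33 reads (0.538 RPKM) in CD8 (2.45-fold, 1.62 to 3.79). Slc16a5 was the highest in CD4, at 22.6 RPKM, against 14.1 RPKM in CD8, and Slc16a13 was at 2.40 RPKM in CD4 cells and 1.41 in CD8 cells. Basigin and embigin, the partner proteins that carry monocarboxylate transporters to the surface, were level: Bsg was at 59.7 RPKM in CD4 cells and 61.1 in CD8 cells, and Emb at 97.4 and 99.0 RPKM in the same order. Slc16a6 shares 23.5% of its exon bases with other annotated genes, mostly on the opposite strand. Reads of such genes cannot be assigned with certainty, since the strand setting of the counting is not given in the sources used here.

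Mitochondrial carriers were the class with the most members. Of 44 Slc25 symbols 36 were expressed, and they made 33.8% of the summed RPKM of all members in CD4 and 38.6% in CD8. Slc25a5, the housekeeping adenine nucleotide translocase, was the highest member of all, at 232 RPKM in CD4 cells and 328 in CD8 cells (1.42-fold higher in CD8, 1.37 to 1.46). Slc25a3, which imports the phosphate for ATP synthesis, followed at 157 RPKM in CD4 cells and 207 in CD8 cells (1.32-fold, 1.28 to 1.37). With Slc25a4 these are the carriers that supply ATP synthase and export its product, and all 3 were higher in CD8. Their log2 differences were -1.34 (Slc25a4), -0.50 (Slc25a5) and -0.40 (Slc25a3). With libraries rescaled to equal RPKM sums they were -1.13, -0.29 and -0.19, in that order. The 3 were not a group set in advance, so the shared direction is not read as a result of its own. The summed RPKM of the translocases Slc25a4 and Slc25a5 was 276 in CD4 and 442 in CD8, and Slc25a4 made 16.01% of that sum in CD4 and 25.6% in CD8. Slc25a5 has 2 other annotated genes at least 95% identical over 30% or more of its transcript, so its level is uncertain.

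Over all 36 mitochondrial carriers, these 3 included, the median was 0.06, with 21 above 0 and 15 below it, where 59.5% of all compared genes lay above 0. By the 1.5-fold limit 6 were higher in CD4 and 3 in CD8, beside 11.1% and 9.33% of all compared genes. The 3 expressed ATP-magnesium/phosphate carriers, which calcium regulates, all lay toward CD4: Slc25a24 was at 3.94 RPKM in CD4 cells and 1.80 in CD8 cells (2.19-fold, 1.79 to 2.68), Slc25a23 at 4.93 and 2.38 RPKM (2.08-fold, 1.74 to 2.48) and Slc25a25 at 13.6 and 10.5 RPKM (1.3-fold, 1.2 to 1.41), CD4 before CD8. Also toward CD4 were Slc25a44, a carrier of branched-chain amino acids, at 14.9 RPKM in CD4 cells and 9.74 in CD8 cells, and Slc25a42, the coenzyme A carrier, at 1.41 and 0.702 RPKM in the same order. Slc25a33, a pyrimidine nucleotide carrier, was at 2.70 RPKM in CD4 cells and 4.71 in CD8 cells. Between these lay a level group with intervals that held 1, such as the citrate carrier Slc25a1 (13.1 RPKM in CD4, 13.2 RPKM in CD8), the carnitine-acylcarnitine carrier Slc25a20 (15.2 and 13.9 RPKM), the glycine carrier Slc25a38 (22.3 and 21.3 RPKM) and Slc25a32, which serves folate and FAD import (13.5 and 13.4 RPKM).

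Several pairs of close relatives leaned in opposite ways, which shifted the make-up of the pair. These pairs were picked after the values were seen. The aspartate-glutamate carriers of the malate-aspartate shuttle were divided so that Slc25a12 (aralar) was at 52.1 RPKM in CD4 cells and 39.9 in CD8 cells, and Slc25a13 (citrin) at 1.04 RPKM in CD4 cells and 2.15 in CD8 cells (2.06-fold higher in CD8, 1.57 to 2.73). Slc25a12 still made 98.0% of their sum in CD4 and 94.9% in CD8. Of the mitoferrins, which import iron into mitochondria, Slc25a37, best known from red cell precursors, was at 10.2 RPKM in CD4 cells and 5.66 in CD8 cells (1.81-fold higher in CD4, 1.63 to 2.01), and Slc25a28 was at 24.1 RPKM in CD4 cells and 29.9 in CD8 cells. Their sum was close, 34.3 RPKM in CD4 cells and 35.6 in CD8 cells, while the share of Slc25a37 was 29.8% in CD4 and 15.9% in CD8. Alas2, the erythroid marker with reads, was at 0.226 RPKM in CD4 cells and 0.192 in CD8 cells, and any part of red cell precursors in these values was not tested.

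**Figure D4:**
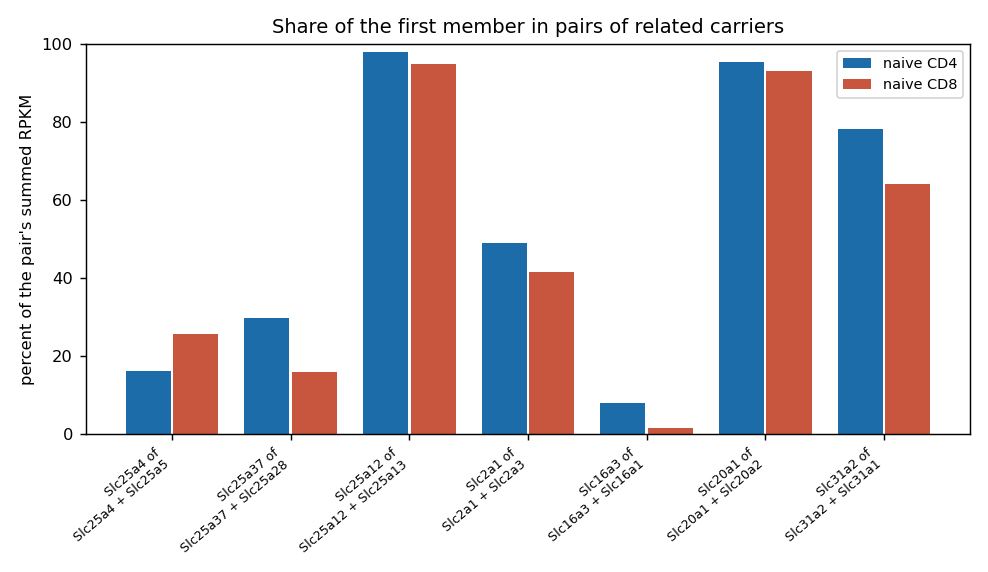
Share of the first member in the summed RPKM of 7 pairs of related carriers, as a percent, in naive CD4 (left bar) and naive CD8 (right bar). The mitoferrin Slc25a37 makes 29.8% of its pair with Slc25a28 in CD4 and 15.9% in CD8, and of the first members drawn only Slc25a4 has a higher share in CD8.

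Among ion and pH transporters the potassium-chloride cotransporters Slc12a7 and Slc12a4 lay toward CD8. Slc12a7 (KCC4) was at 56.4 RPKM in CD4 cells and 96.8 in CD8 cells (1.72-fold higher in CD8, 1.67 to 1.77). Slc12a4 (KCC1) was lower, at 3.43 RPKM in CD4 cells and 7.04 in CD8 cells (2.05-fold higher in CD8, 1.79 to 2.35). Of the kinases of the pathway that controls these cotransporters, Stk39 (SPAK) was past the size rule, at 5.09 RPKM in CD4 cells and 1.88 in CD8 cells (2.71-fold, 2.23 to 3.29). Oxsr1 was at 23.9 and 20.1 RPKM and Wnk1 at 21.7 and 19.4 RPKM, CD4 before CD8.

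The phosphate importer Slc20a1 was at 63.5 RPKM in CD4 cells and 49.3 in CD8 cells (1.29-fold higher in CD4, 1.24 to 1.34), and its relative Slc20a2 was at 3.07 and 3.64 RPKM in the same order. The 3 expressed bicarbonate transporters of the Slc4 family lay above 0, as did 59.5% of all compared genes. The anion exchanger Slc4a2 was at 22.3 RPKM in CD4 cells and 15.8 in CD8 cells (1.41-fold, 1.32 to 1.5). Slc4a8, at 1.023 RPKM in CD4 cells and 0.563 in CD8 cells, was a member through its CD4 value alone. Its direction therefore follows from the filter, and the shared direction is not read as a trait of the family. Sodium-proton exchangers were mixed. The Golgi form Slc9a8 was at 21.9 RPKM in CD4 cells and 17.1 in CD8 cells, and Slc9a7, of the trans-Golgi network, at 1.25 RPKM in CD4 cells and 3.25 in CD8 cells (2.59-fold higher in CD8, 1.98 to 3.43). The interval of the endosomal form Slc9a9 held 1. Over the 19 members of the class the median was 0.09. By the 1.5-fold limit 2 were higher in CD4 and 3 in CD8, beside 11.1% and 9.33% of all compared genes.

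Metal transporters held both members past the size rule toward CD4, where 2.41% of all compared genes passed it. With 2 genes this count is not read as a trait of the class. Neither passed with a pseudocount of 5 RPKM, and Slc39a3 alone remained with the filter at 5 RPKM. The class median was 0.20, with 14 of 23 above 0, a share close to the 59.5% of all compared genes. The highest was Slc39a7 (ZIP7), which releases zinc from the endoplasmic reticulum, at 77.7 RPKM in CD4 cells and 55.7 in CD8 cells (1.39-fold, 1.33 to 1.46); 80.7% of its exon bases are shared with the annotated gene Gm20427 on the same strand. Slc30a5 (ZnT5), which loads zinc into the secretory pathway, was at 32.7 RPKM in CD4 cells and 28.4 in CD8 cells. Others at 1.5-fold or more toward CD4 were Slc39a11 (14.5 RPKM in CD4, 9.25 RPKM in CD8) and Slc39a8, the zinc and manganese importer ZIP8 (2.23 and 1.3 RPKM). The iron uptake genes Slc11a2 and Tfrc lay the other way. Slc11a2, which encodes the iron importer DMT1, was at 7.81 RPKM in CD4 cells and 15.1 in CD8 cells (1.93-fold higher in CD8, 1.74 to 2.15), and the transferrin receptor gene Tfrc was at 14.6 RPKM in CD4 cells and 23.3 in CD8 cells (1.6-fold, 1.51 to 1.70). The high-affinity copper importer Slc31a1 was at 2.09 RPKM in CD4 cells and 2.94 in CD8 cells, and Slc31a2 at 7.51 and 5.23 RPKM in the same order.

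Nucleoside, vitamin and choline transporters included Slc44a2, a choline transporter-like protein and the third highest member by mean, at 163 RPKM in CD4 cells and 143 in CD8 cells (1.14-fold higher in CD4, 1.11 to 1.17). Slc28a2, a concentrative nucleoside transporter, was at 58.2 RPKM in CD4 cells and 47.96 in CD8 cells, but its transcript is almost wholly shared (99.8%) with the near-identical gene Gm14085, which stood at 48.6 RPKM in CD4 cells and 40.5 in CD8 cells, so the 2 cannot be told apart here. The equilibrative nucleoside transporter Slc29a1 was level at 16.9 RPKM in CD4 cells and 17.6 in CD8 cells. The vitamin C transporters Slc23a2 (13.7 RPKM in CD4, 9.81 RPKM in CD8) and Slc23a1 (1.01 and 1.85 RPKM) leaned in opposite ways. Slc46a3, a lysosomal member of the folate transporter family, was at 4.94 RPKM in CD4 cells and 8.61 in CD8 cells (1.74-fold higher in CD8, 1.51 to 2.02), and the reduced folate carrier Slc19a1 was at 8.09 and 7.02 RPKM in the same order.

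All 5 nucleotide sugar carriers of the Slc35a group, which bring activated sugars into the Golgi, were above 0, with a median of 0.38. Related carriers outside the naming pattern went both ways: Slc35d1 was at 1.23 RPKM in CD4 cells and 2.05 in CD8 cells, Slc35b4 at 7.54 and 9.05 RPKM, and Slc35c2 at 13.9 and 7.11 RPKM, CD4 before CD8. Slc35a1, the CMP-sialic acid carrier, was at 9.89 RPKM in CD4 cells and 6.85 in CD8 cells (1.44-fold, 1.25 to 1.66), and Slc35a3, the UDP-N-acetylglucosamine carrier, at 13.4 and 10.03 RPKM (1.33-fold, 1.26 to 1.41). The UDP-galactose carrier Slc35a2, at 8.14 RPKM in CD4 cells and 7.87 in CD8 cells, was not distinguishable at this depth. Slc35a5 was the 1 member of the class past the 1.5-fold limit, at 9.48 RPKM in CD4 cells and 6.25 in CD8 cells. None was past the size rule, and over all compared genes 59.5% lay above 0.

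Of the 9 organic ion, lipid and vesicular transporters, the fatty acid transport proteins Slc27a6 and Slc27a4 differed most. Slc27a4 was at 13.3 RPKM in CD4 cells and 8.38 in CD8 cells (1.59-fold higher in CD4, 1.45 to 1.74). Slc27a6 had 7 reads (0.109 RPKM) in CD4 and 70 reads (1.13 RPKM) in CD8 (10.4-fold higher in CD8, 4.78 to 26.7). It was a member through its CD8 value alone, so its direction follows from the filter. Slc27a1 was level at 3.08 RPKM in CD4 cells and 3.12 in CD8 cells. So were the vesicular nucleotide transporter Slc17a9, at 28.5 RPKM in CD4 cells and 29.1 in CD8 cells, and the carnitine importer Slc22a5, at 7.404 and 7.18 RPKM. Slc22a5 was the 1 expressed member among 26 Slc22 symbols, the family of organic cation and anion transporters known from kidney and liver. The urea transporter Slc14a1 was at 14.9 RPKM in CD4 cells and 18.4 in CD8 cells.

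**Figure D5:**
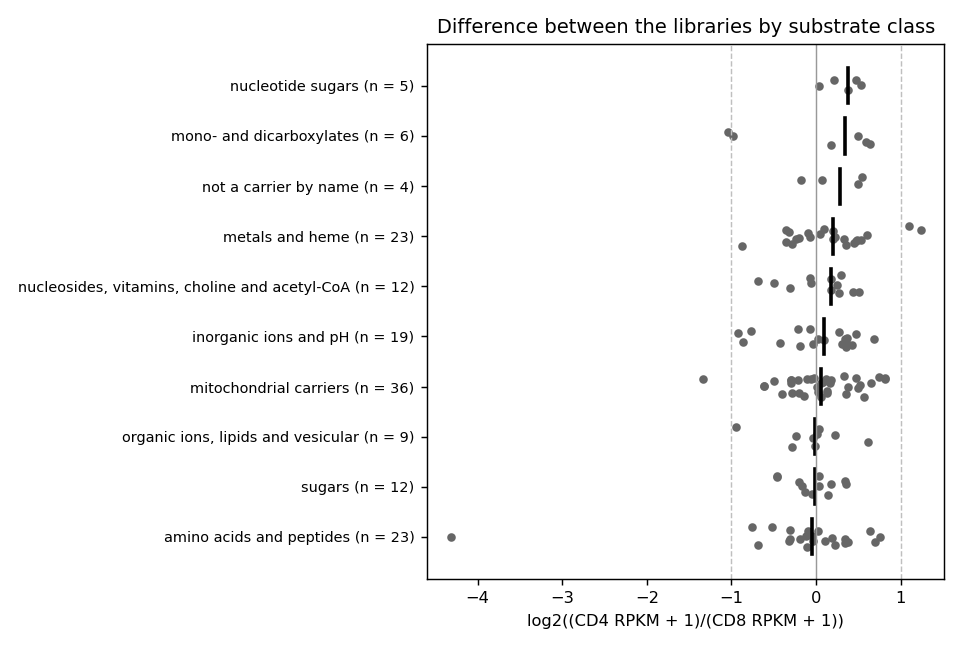
Difference between the libraries, log2((CD4 RPKM + 1)/(CD8 RPKM + 1)), for each member by substrate class, with the class median as a black bar and the size rule as dashed lines. Classes follow the family number, so single members may carry another substrate. Class medians lie between -0.05 for amino acids and peptides and 0.38 for nucleotide sugars, and single members spread more widely than the medians.

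The 4 symbols that are no carriers were all well expressed and showed small differences. Slc2a4rg-ps was at 61.3 RPKM in CD4 cells and 41.8 in CD8 cells, Slc9a3r1 at 43.6 and 41.5 RPKM, Slc4a1ap at 40.2 and 28.2 RPKM and Slc7a6os at 31.1 and 35.4 RPKM. They held 6.74% of the summed RPKM of all members in CD4 and 5.36% in CD8. Leaving them out changed neither count of the size rule.

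Reads of some other members may also be shared. Besides those given above, near-identical genes exist in the annotation for Slc22a5, Slc35a4, Slc38a6, Slc39a1 and Slc5a6, and over 10% of exon bases overlap other genes in Slc33a1, Slc3a1 (26.5%), Slc30a7, Slc25a33 (14.9%), Slc4a2 (13.7%), Slc20a1 (13.1%) and Slc10a3. The levels of these genes are uncertain to that extent.

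The 190 matching symbols under 1 RPKM in both libraries were not compared, and 112 of them were listed at 0 in both. Just inside the limit, by the higher of the 2 libraries, were Slc15a1 at 1.12 RPKM, Slc43a3 at 1.08, Slc4a8 at 1.023 and Slc3a1 at 1.021, and just outside it were Slc25a35 at 0.976, Slc23a3 at 0.849, Slc29a2 at 0.739 and Slc22a17 at 0.716. Of 48 families with a symbol, 41 had an expressed member. The neurotransmitter family Slc6 had 2 of 19 symbols expressed, Slc6a19 and Slc6a6, and the Slc5 family of sodium-coupled sugar transporters 2 of 13. Zinc importers of the Slc39 family were expressed at 11 of 14. Symbols listed at 0 in both libraries included Slc7a11, the cystine transporter that activated cells use, the liver glucose transporter Slc2a2, the fructose transporter Slc2a5 and the dopamine and serotonin transporters Slc6a3 and Slc6a4. Rpl26 and Ndufs5, which encode parts of the ribosome and of respiratory complex I, were also listed at 0 in both, so a value of 0 is taken as no statement on expression.

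A list of transporter genes outside the naming pattern also held the partner genes Bsg and Emb. Of 69 found, 40 reached 1 RPKM, with a median of 0.04, 0 past the size rule toward CD4 and 1 toward CD8. All compared genes had a median of 0.08 and shares of 2.41% and 3.07%, so these counts are not read as a trait of the list. The 1 toward CD8 was Mfsd11, a gene of the major facilitator family, at 6.16 RPKM in CD4 cells and 19.2 in CD8 cells (3.12-fold, 2.81 to 3.47). Ucp2, a mitochondrial carrier of the uncoupling protein group, was at 75.1 RPKM in CD4 cells and 45.1 in CD8 cells (1.67-fold higher in CD4, 1.61 to 1.73). The mitochondrial pyruvate carrier has 2 subunits, listed under older symbols: Brp44l (Mpc1) was at 28.7 RPKM in CD4 cells and 30.3 in CD8 cells, and Brp44 (Mpc2) at 15.2 and 24.8 RPKM in the same order.

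Genes that sense amino acids or control uptake were read beside the carriers. Of 29 compared, 1 was past the size rule toward CD4 and 2 toward CD8, where all compared genes had 2.41% and 3.07%, and the median was 0.12 against 0.08 over all compared genes. The 1 toward CD4 was Stk39, given above. Toward CD8 were Nedd4, a ubiquitin ligase that takes membrane proteins from the surface, at 1.18 RPKM in CD4 cells and 17.4 in CD8 cells (14.7-fold, 12.5 to 17.4), and the arrestin-like Arrdc4 at 0.410 RPKM in CD4 cells and 2.33 in CD8 cells (5.68-fold, 4.04 to 8.17). Txnip, an arrestin-like protein that restrains glucose uptake through GLUT1, was at 451 RPKM in CD4 cells and 362 in CD8 cells (1.25-fold higher in CD4, 1.23 to 1.27). The growth kinase gene Mtor was at 14.9 RPKM in CD4 cells and 12.5 in CD8 cells.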

How the data were processed

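Total RNA depleted of ribosomal RNA was made into SOLiD libraries with a low-input preparation, per the labels' protocols. The deposited values are RPKM, reads normalised by the authors to gene length and library total. The submitters' processing notes list TopHat, HTSeq and mm9 without roles or versions. Annotation, strand setting and the treatment of multiply mapped reads are not given in the sources used, so reads of overlapping genes may be shared. The 26882 rows per library name 23167 symbols; rows that repeat a symbol (2597 symbols) hold the same value and were merged. Of the members 28 are such symbols.

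The members and lists were chosen with earlier results of these data known. Compared genes had 1 RPKM or more in either library. Substrate classes follow the family number alone. A class can therefore hold a carrier of another substrate, such as the urate transporter Slc2a9 among sugars. Named genes are members past the size rule at 5 RPKM or more, the 2 highest and the 2 most different in each class, the nutrient list and those next to the 1 RPKM limit; others named were chosen after their values were seen.

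Whole reads were recovered as the totals at which RPKM gave whole reads and lengths, with GENCODE M21 transcripts setting the scale; this held for all 12735 genes above 0 in both libraries within the printed precision. Recovered reads summed to 1.06 times the CD4 total and 1.07 times the CD8 total, and 74.5% of members were at their smallest possible length. The others may carry reads that are too high and intervals that are too narrow. Ratios do not depend on this. Reads are not independent molecules, so intervals cover counting error only and compare libraries, not cell types. On simulated libraries of 14352 genes both totals were found, and 95.2% of intervals held the simulated fold over 10035 compared genes. Those intervals were built from the simulated reads, with counting error only, and not from recovered reads. The share therefore follows from the interval's construction and says nothing on intervals from recovered reads.

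Exon overlaps and near copies (blastn 2.17.0, 95% identity over 30% of the longest transcript) were taken from GENCODE M21 (GRCm38) by symbol, for all 149 members. Of these, 10 shared over 10% of exon bases with other genes and 9 had a near copy. Promoters came from RefSeq (GRCm38.p6); 110 members matched. Python 3.11.15, pandas 2.3.3 and scipy 1.17.1 were used. Some genes are counted in the totals but are not reported here by name.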

Additional observations from a re-analysis of the deposited data

How the results depend on the processing

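The counts past the size rule are small and moved with several settings. With a pseudocount of 0.1 RPKM they became 6 higher in CD4 and 7 higher in CD8, against 2 and 3. The shares of all compared genes at that setting were 4.18% and 4.52%. With 5 RPKM 0 members remained toward CD4, beside 0.714% of all compared genes. A filter at 5 RPKM left 1 toward CD4, beside 1.86% of all compared genes. Leaving out symbols on more than 1 row also left 1 toward CD4. Centring on the median gene gave 5 toward CD8, beside 3.6% of all compared genes, and a median of -0.02 over the members. Rescaling each library to an RPKM sum of 1000000 gave 5 toward CD4, beside 5.05% of all compared genes. It moved the median to 0.27 over the members and 0.27 for mitochondrial carriers. The median became 0.39 for the nucleoside, vitamin, choline and acetyl-CoA class and 0.60 for nucleotide sugars. Rescaling also turned the medians of amino acid and peptide carriers to 0.16, of sugar carriers to 0.18 and of organic ion, lipid and vesicular carriers to 0.18, each just below 0 as reported. The median of amino acid and peptide carriers was 0.06 without symbols on more than 1 row, and that of mono- and dicarboxylate carriers was -0.98 with the filter at 5 RPKM. These shifts follow from the construction of the settings. Slc6a19 and Slc25a4 were past the size rule toward CD8 under every setting run. Slc16a1 fell under it with a pseudocount of 5 RPKM (-0.88) and with rescaling (-0.85), and Slc39a3 and Slc41a3 did so with a pseudocount of 5 RPKM (0.77 and 0.61). No called member reversed. With 1 library per cell type, differences between animals, sorts or preparations cannot be told apart from differences between the cell types, and members with few reads, such as Slc27a6, have wide intervals. No paired analysis was possible because each cell type had 1 library.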

Other observations

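Some carriers too low to be members differed between the libraries in reads. Slc43a1, the large neutral amino acid transporter LAT3, had 5 reads in CD4 and 49 reads in CD8, and Slc16a7, the monocarboxylate transporter MCT2, had 2 reads in CD4, against 24 in CD8. Toward CD4, the riboflavin transporter Slc52a3 had 43 reads in CD4, against 7 in CD8, and the fatty acid transport protein Slc27a5 had 35 reads in CD4 and 6 in CD8. These were chosen after their values were seen.

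Slc6a19 and Slc12a7, both higher in CD8, are next to each other among protein-coding genes of chromosome 13 in the RefSeq annotation of GRCm38.p6. The next genes beyond Slc6a19 were Slc6a18, with 10 reads in CD4 and 14 in CD8, and Tert, at 1.83 RPKM in CD4 cells and 0.922 in CD8 cells. Beyond Slc12a7 lay Nkd2, at 0.0629 RPKM in CD4 cells and 0.0522 in CD8 cells, and Trip13, at 0.233 RPKM in CD4 cells and 0.837 in CD8 cells.

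Gene length divided the members less than it divided all compared genes. The shorter members (3352 bases or less) had a median log2 difference of 0.06 and the longer ones 0.04, while over all compared genes the shorter part had 0.01 and the longer part 0.14, with the limit there at 2840 bases.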
